A study of Sus scrofa with 12 samples.

Results

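Interferon-stimulated genes were followed in the coronary artery wall around stents, in Yorkshire farm pigs studied 28 days after a stent had been implanted at angioplasty. The set is made of 9 genes, IRF7, XAF1, IFIT1, IFIT2, GBP1, MX1, MX2, ISG15 and RSAD2, and takes in each probe set whose only gene symbol in the platform annotation is one of these. All 9 were found, with 20 of the 24123 probe sets and 9 of the 6765 genes so named on the Affymetrix porcine array. IFIT1, IFIT2 and GBP1 had 3 probe sets each, RSAD2 had 4, IRF7 and MX2 had 2, and XAF1, MX1 and ISG15 had 1. Stents were of bare metal (BMS), or they released sirolimus (SES) or zotarolimus (ZES), with 4 segments from 2 pigs in each group and 12 arrays in all. Sirolimus inhibits the mTOR kinase, and zotarolimus is an analog of it. The title of the series speaks of overlapping stents, while the sample labels name 1 type of stent per segment. All groups share the angioplasty and the stent, and no unstented artery was analysed here. Arrays 1 and 2 of a group came from one pig and arrays 3 and 4 from the other. Each pig gave 1 segment of the right coronary artery (RCA). The other was of the left circumflex artery (LCX) in the pig of SES 1 and SES 2, and of the left anterior descending branch (LAD) in the other 5 pigs. Each group holds only 2 animals, so that the spread between segments, more than that between animals, sets the p-values. RNA came from whole dissected tissue, so that fewer cells of a type and less RNA per cell cannot be told apart.

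Type I interferons bind a receptor on nearly every cell, which through the kinases JAK1 and TYK2 activates a transcription factor complex that includes STAT2 and IRF9. This complex enters the nucleus and switches on a large set of antiviral genes. IRF7 is the transcription factor that amplifies the production of interferon. ISG15 is a ubiquitin-like protein attached to other proteins, and XAF1 promotes cell death. IFIT1 and IFIT2 bind foreign RNA or translation factors and block its translation, RSAD2 (viperin) makes a chain-terminating nucleotide, and MX1 and MX2 are dynamin-like GTPases that trap viral particles. GBP1, another large GTPase, answers most strongly to interferon gamma, the product of T and NK cells, which has a receptor of its own. In the vessel wall these genes can be expressed by smooth muscle cells, endothelial cells and leukocytes alike. In the pig genome assembly Sscrofa11.1, IFIT3 lies next to both IFIT1 and IFIT2, GBP2 lies next to GBP1, and a single annotated locus lies between MX1 and MX2.

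Values are log2 signals, so that a step of 1 is a factor of 2. Background was set on each array as the 95th percentile of 59 control probe sets whose target had not been added. It lay between 5.27 and 5.96 on BMS arrays, between 4.15 and 5.39 on SES arrays and between 4.19 and 5.16 on ZES arrays. The hybridisation spike-in controls also differed between the groups, with means of 15.74 to 16.52 with BMS, 14.62 to 15.60 with SES and 14.60 to 15.91 with ZES. Of the 20 probe sets, 15 entered the test. The 5 others were 3 RSAD2 probe sets that the array carries as controls, and the second probe sets of IRF7 and MX2, which were removed by the filter on low signal. XAF1, MX1, ISG15, the 3 probe sets of IFIT1, and 1 or more probe sets of each other gene were above background on all 12 arrays.

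No interferon-stimulated gene passed the test in any comparison. For the 8 genes other than GBP1, all 12 tested probe sets had their highest mean with BMS, and 1 BMS segment (BMS 4) and 1 SES segment (SES 4) lay apart from their groups. For GBP1, 2 of 3 probe sets had higher means with both drug-eluting stents than with BMS. Stent types were compared with limma over 16799 probe sets at an adjusted p under 0.05. With SES against BMS 0 of 15 probe sets passed, where 0.679% of all probe sets tested did, and 10 had an unadjusted p under 0.05, where 14.3% of all did. Of these 10, 8 were lower with SES (7.01% of all) and 2, both of GBP1, were higher (7.33% of all). With ZES against BMS 0 of 15 passed, where 0% of all did, and 8 had an unadjusted p under 0.05, against 8.99% of all. Of these 8, 7 were lower with ZES (4.27% of all) and 1 was higher (4.72% of all). Between ZES and SES 0 passed, where 0.0714% of all did, and 2 had an unadjusted p under 0.05, against 10% of all, with 1 lower with ZES (4.38% of all) and 1 higher (5.66% of all). The F test over the 3 stent types together called 0 of 15, where it called 0.345% of all, and 10 of 15 had an unadjusted p under 0.05, against 13.4% of all. These counts describe the set and do not test it, since its genes were chosen with earlier results of these data known. Several of the probe sets also belong to 1 gene and are not independent.

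**Figure D1:**
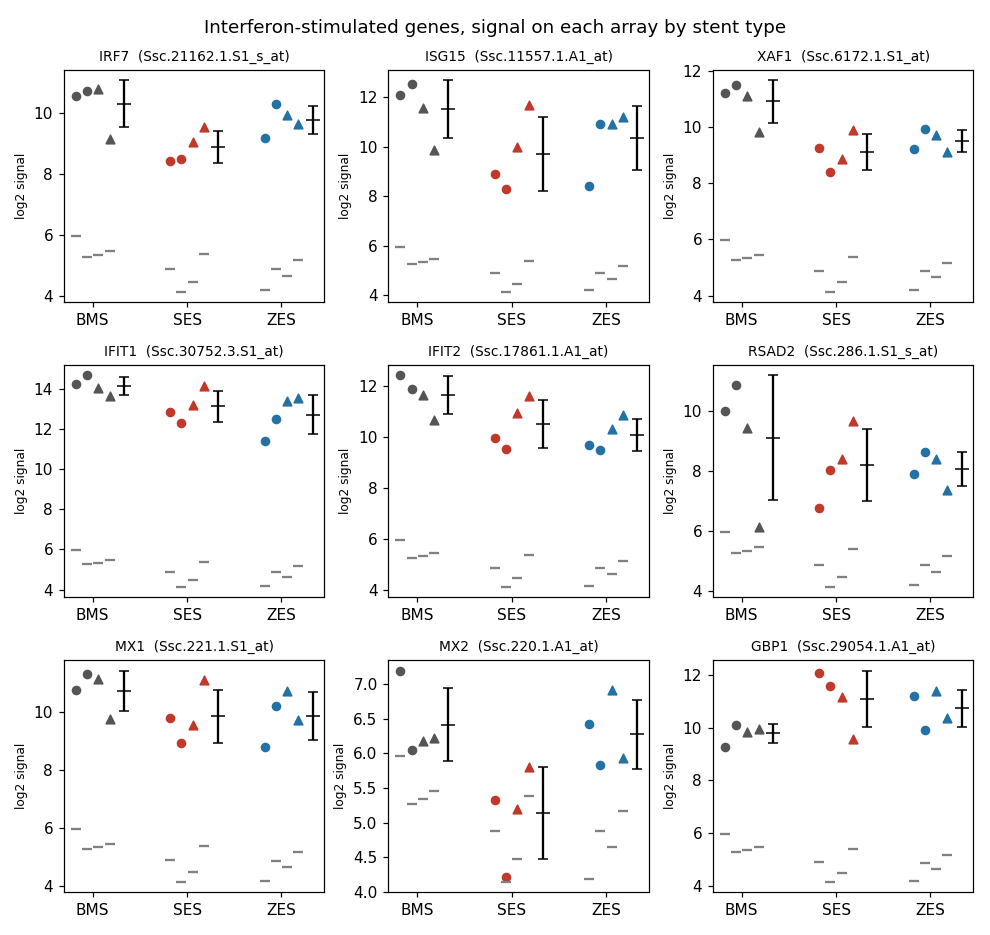
Log2 signal of the tested probe set with the highest mean of each of the 9 genes on every array, by stent type. Circles are arrays 1 and 2 of a group (one pig), triangles arrays 3 and 4 (the other pig), the black bar is the mean with its SD (n = 4 arrays), and grey dashes mark the background of each array. BMS 4 lies below the other BMS arrays for IRF7, ISG15, XAF1, IFIT1, IFIT2, RSAD2 and MX1, and the scale differs from panel to panel.

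IRF7 gave signals of 10.56, 10.72, 10.77 and 9.16 on BMS 1 to 4. It gave 8.42, 8.48, 9.05 and 9.53 on SES 1 to 4, and 9.18, 10.28, 9.95 and 9.65 on ZES 1 to 4. BMS 1 to 3 lay above every SES and every ZES array, whereas BMS 4 lay within the SES range and below each ZES array. The difference was -1.43 ± 0.41 for SES minus BMS (log2, estimate ± SE, limma adjusted p = 0.105) and -0.54 ± 0.41 for ZES minus BMS (adjusted p = 0.722). ZES was 0.89 ± 0.41 above SES, with a 95% interval of 0.034 to 1.75 (adjusted p = 0.478). IRF7 passed for SES against BMS without BMS 4 (-1.81, limma adjusted p = 0.0314) and without SES 4 (-1.66, limma adjusted p = 0.0486). Of all 16799 probe sets, 173 and 413 passed in these settings, against 114 with all arrays. The second IRF7 probe set was above background on 1 of 12 arrays, ZES 3, and shows no order of the groups.

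XAF1 came nearest to the threshold. Its signals were 11.21, 11.52, 11.12 and 9.81 on BMS 1 to 4, 9.26, 8.39, 8.87 and 9.91 on SES 1 to 4, and 9.21, 9.92, 9.73 and 9.11 on ZES 1 to 4. The group means were 10.92 ± 0.75 with BMS, 9.11 ± 0.64 with SES and 9.49 ± 0.39 with ZES (mean ± SD, n = 4). Again BMS 4 stood with the drug-eluting stents, and SES 4 and ZES 2 were slightly above it. XAF1 was 3.51-fold higher with BMS than with SES (difference -1.81 ± 0.41, 95% interval -2.67 to -0.95, limma adjusted p = 0.0520) and 2.69-fold higher with BMS than with ZES (-1.43 ± 0.41, adjusted p = 0.405). The F test gave adjusted p = 0.0880. Without BMS 4 or without SES 4, XAF1 passed for SES against BMS, at -2.18 and -2.08 (limma adjusted p = 0.0162 and 0.0163). Of all 16799 probe sets, 173 and 413 passed in these settings, against 114 with all arrays. XAF1 passed under 7 of 29 alternative settings. Its limma adjusted p ran from 0.0127 without the pig of BMS 3 and 4 to 0.793 when the spike-in level was a covariate. Over all probe sets, 396 passed in the first of these settings and 0 in the second.

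ISG15 varied widely between segments of 1 stent type. BMS 1 to 4 gave 12.10, 12.54, 11.57 and 9.85. SES 1 to 4 gave 8.88, 8.29, 10.01 and 11.69, and ZES 1 to 4 gave 8.42, 10.91, 10.91 and 11.19. The SES arrays thus ran from the lowest signal of all arrays, on SES 2, to a value above BMS 3, on SES 4. The differences were -1.79 ± 0.72 for SES minus BMS (limma adjusted p = 0.255) and -1.16 ± 0.72 for ZES minus BMS (adjusted p = 0.659). With the spike-in covariate, the latter turned to 0.20.

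All 3 probe sets of IFIT1 had lower means with either drug-eluting stent. The one with the highest mean, Ssc.30752.3.S1_at, read 14.24, 14.66, 14.05 and 13.61 on BMS 1 to 4, 12.86, 12.29, 13.19 and 14.15 on SES 1 to 4, and 11.42, 12.48, 13.38 and 13.53 on ZES 1 to 4. Every ZES array was below every BMS array, while SES 4 lay among the BMS arrays. The difference of this probe set was -1.44 ± 0.44 for ZES minus BMS (limma adjusted p = 0.405) and -1.02 ± 0.44 for SES minus BMS (adjusted p = 0.295). The second, Ssc.30752.2.A1_at, likewise had no overlap between ZES, from 11.45 to 13.45, and BMS, from 13.96 to 14.68 (difference -1.61 ± 0.45, adjusted p = 0.405). The third, Ssc.30752.1.S1_at, had differences of -1.91 ± 0.70 for SES (adjusted p = 0.207) and -1.93 ± 0.70 for ZES (adjusted p = 0.441), with ZES 1 at 6.28 and SES 2 at 6.68 below the other arrays. With the spike-in covariate, SES minus BMS turned to 0.17 for the second probe set and 0.32 for Ssc.30752.3.S1_at.

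IFIT2 had the probe set with the smallest p of the set for ZES against BMS. Ssc.30532.1.A1_at read 9.09, 10.24, 9.65 and 7.89 on BMS 1 to 4, 8.37, 8.70, 8.52 and 8.70 on SES 1 to 4, and 6.78, 6.75, 7.82 and 7.83 on ZES 1 to 4. The ZES arrays lay below all SES arrays and below all BMS arrays, although ZES 4 and BMS 4 were nearly equal.

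The difference of this probe set was -1.92 ± 0.48 for ZES minus BMS (limma adjusted p = 0.360) and -1.27 ± 0.48 for ZES minus SES (adjusted p = 0.369), against -0.65 ± 0.48 for SES minus BMS (adjusted p = 0.568). The IFIT2 probe set Ssc.17861.1.A1_at gave 11.64 ± 0.74 with BMS, 10.51 ± 0.93 with SES and 10.09 ± 0.63 with ZES (mean ± SD, n = 4), with differences from BMS of -1.13 ± 0.46 (adjusted p = 0.263) and -1.56 ± 0.46 (adjusted p = 0.405). The other, Ssc.22620.1.S1_at, was above background on 6 arrays, 3 of them BMS, 1 SES and 2 ZES. Its differences of -3.79 ± 1.34 and -2.88 ± 1.34 (adjusted p = 0.189 and 0.545) therefore rest on arrays at background.

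RSAD2 was set apart by one BMS array. Its signals were 10.01, 10.86, 9.44 and 6.13 on BMS 1 to 4, 6.76, 8.02, 8.39 and 9.66 on SES 1 to 4, and 7.89, 8.62, 8.39 and 7.36 on ZES 1 to 4. BMS 4 was the lowest of all 12 arrays for this gene and BMS 2 the highest, so that the BMS group spanned the others. The differences were -0.91 ± 0.79 for SES minus BMS (limma adjusted p = 0.637) and -1.05 ± 0.79 for ZES minus BMS (adjusted p = 0.722). Without the pig of BMS 1 and 2 they turned to 0.42 and 0.28.

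The array also carries RSAD2 as a control with separate probe sets near the 3' end, in the middle and near the 5' end. The 3' probe set was above background on 12 arrays, the 5' one on 2 and the middle one on 3. The 3' probe set read 8.57, 9.37, 7.94 and 5.54 on BMS 1 to 4, 5.67, 6.40, 7.31 and 8.25 on SES 1 to 4, and 6.16, 7.12, 6.98 and 5.91 on ZES 1 to 4. BMS 4 was the lowest here too. With these probe sets kept in the test, a choice made after seeing the data, the 3' one had a difference of -0.95 for SES minus BMS (limma adjusted p = 0.593) and of -1.31 for ZES minus BMS (adjusted p = 0.629).

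The GTPase MX1 gave 10.73, 11.29, 11.13 and 9.74 on BMS 1 to 4, 9.79, 8.92, 9.55 and 11.09 on SES 1 to 4, and 8.78, 10.19, 10.71 and 9.73 on ZES 1 to 4, so that all groups overlapped. Its difference was -0.88 ± 0.48 for SES (limma adjusted p = 0.421) and -0.87 ± 0.48 for ZES against BMS (adjusted p = 0.618), and the former turned to 0.058 with the spike-in covariate.

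MX2 was dim, at 7.20, 6.05, 6.18 and 6.23 on BMS 1 to 4, 5.33, 4.22, 5.20 and 5.81 on SES 1 to 4, and 6.42, 5.83, 6.91 and 5.94 on ZES 1 to 4. Every SES array was below every BMS and every ZES array, although SES 4 and ZES 2 were nearly equal, and SES 2 stood barely above its background. SES was lower than BMS by a difference of -1.28 ± 0.63 (limma adjusted p = 0.365), and ZES minus SES was 1.14 ± 0.63 (adjusted p = 0.569). For ZES minus BMS the difference was -0.14 ± 0.63, and it kept its sign under 23 of 29 alternatives, with a highest value of 0.39. The second MX2 probe set was above background on 3 arrays.

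GBP1 was ordered the other way. Its probe set Ssc.29054.1.A1_at read 9.26, 10.08, 9.84 and 9.94 on BMS 1 to 4, 12.05, 11.57, 11.15 and 9.57 on SES 1 to 4, and 11.20, 9.91, 11.40 and 10.37 on ZES 1 to 4. SES 1 to 3 lay above all BMS arrays, and SES 4 within them. The differences from BMS were 1.31 ± 0.46 for SES (limma adjusted p = 0.186) and 0.94 ± 0.46 for ZES (adjusted p = 0.571).

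The probe set Ssc.29054.3.S1_at of GBP1 read 6.89, 6.54, 6.45 and 4.29 on BMS 1 to 4, 9.28, 8.58, 8.0 and 6.44 on SES 1 to 4, and 7.12, 7.99, 8.93 and 7.88 on ZES 1 to 4. All ZES arrays were above all BMS arrays, and BMS 4 was below its background. Its differences were 2.03 ± 0.68 for SES (adjusted p = 0.167) and 1.94 ± 0.68 for ZES (adjusted p = 0.425). Without SES 4, both probe sets passed for SES against BMS, at 1.82 (limma adjusted p = 0.0199) and 2.59 (limma adjusted p = 0.0467). Of all 16799 probe sets, 413 passed there, against 114 with all arrays. The third GBP1 probe set was above background on 8 arrays, with 1.57 on BMS 3 and 1.49 on ZES 1, and had differences of 0.63 ± 1.18 for SES and -0.43 ± 1.18 for ZES (adjusted p = 0.849 and 0.942).

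**Figure D2:**
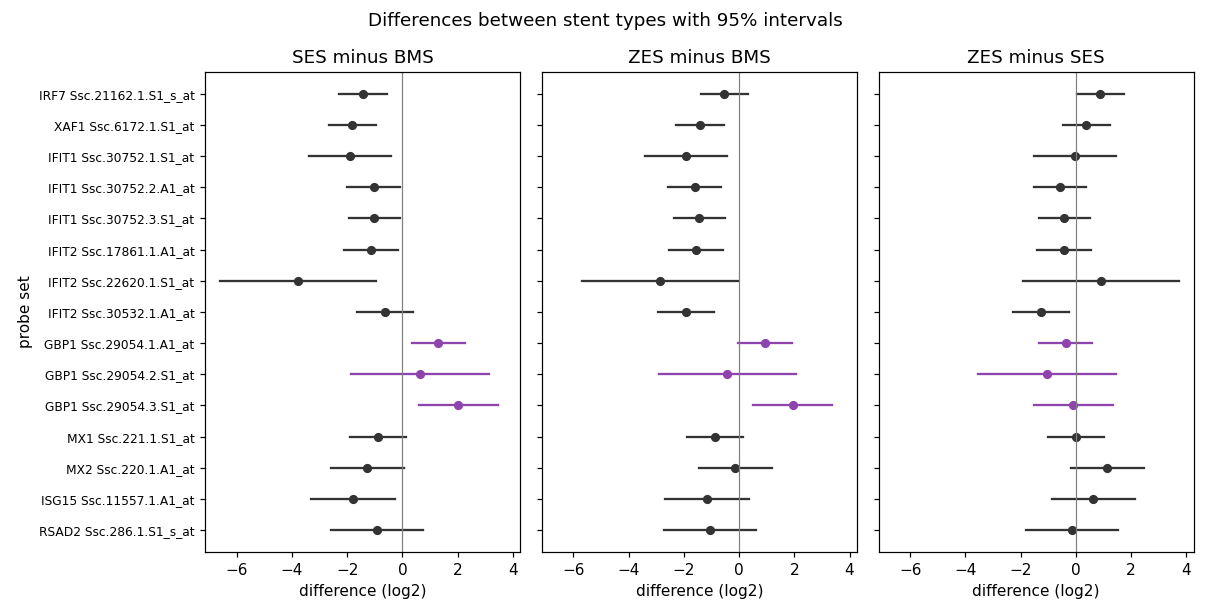
Differences between stent types (log2, points) with their 95% intervals (lines) for the 15 tested probe sets, from limma on 12 arrays, in one panel per comparison. GBP1 is drawn in purple. Against BMS, 12 probe sets lie below 0 with SES and 13 with ZES, and intervals between ZES and SES mostly span 0.

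Over all 20 probe sets the median difference was -1.03 for SES minus BMS and -0.96 for ZES minus BMS, against -0.020 and -0.014 over all probe sets tested. Among the 15 tested, 12 were below 0 with SES and 13 with ZES, where 51.2% and 50.9% of all probe sets were. Groups did not overlap for 1 probe set lower with SES (4.51% of all) and 0 higher (4.23% of all), for 3 lower with ZES (2.23% of all) and for 1 higher with ZES (1.58% of all). As above, these counts describe the set and do not test it. Both comparisons share the BMS arrays, so a high BMS array lowers both differences together. ZES minus SES had a median of -0.0026, with 9 of 15 probe sets below 0 where 51.3% of all were, and did not overlap for 1 lower (3.06% of all) and 1 higher (2.94% of all). The 95% intervals for that comparison were wide, from -1.0 to 1.03 for MX1, from -0.88 to 2.16 for ISG15 and from -1.81 to 1.53 for RSAD2. Intervals that left out 0 were those of IRF7 (0.034 to 1.75) and IFIT2 Ssc.30532.1.A1_at (-2.29 to -0.26), neither of which passed after adjustment.

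The same segments recurred as the highest or the lowest. Over the 12 tested probe sets other than GBP1, BMS 2 was the highest of all arrays for 8, BMS 1 for 3 and BMS 3 for 1. ZES 1 was the lowest for 5, SES 2 for 3, ZES 2 for 2, and BMS 4 and SES 1 for 1 each. Within the stent groups, SES 4 was the highest SES array for all 12, and BMS 4 the lowest BMS array for 11; the exception was MX2, lowest on BMS 2. The mean deviation of these probe sets from their own averages was 1.41, 1.47, 1.16 and -0.24 on BMS 1 to 4, -0.97, -1.38, -0.46 and 0.73 on SES 1 to 4, and -1.44, -0.12, 0.21 and -0.36 on ZES 1 to 4. BMS 4 thus lay below SES 4 and ZES 2 and 3.

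**Figure D3:**
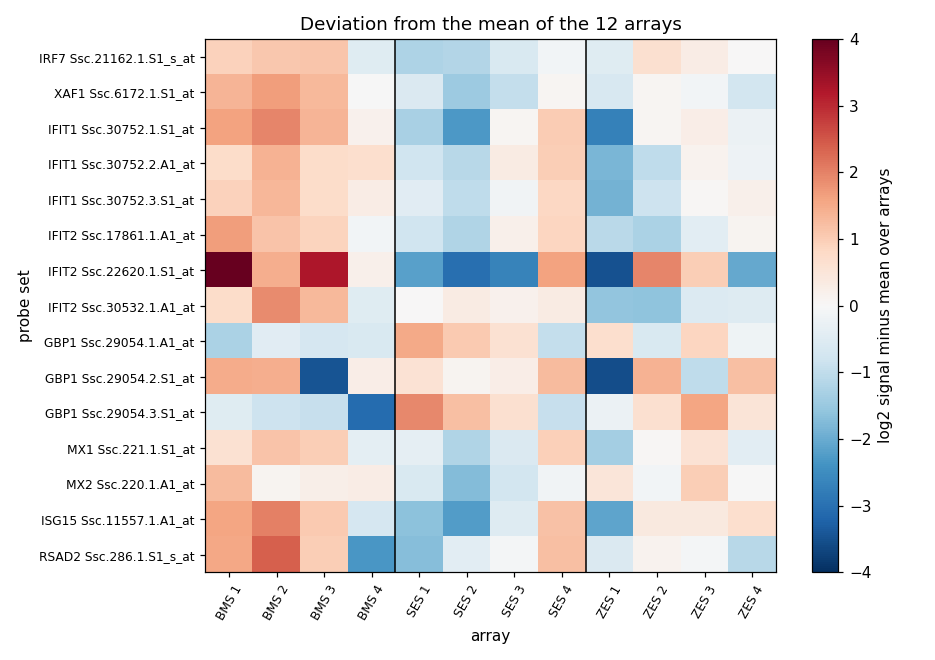
Log2 signal minus the mean over 12 arrays for each of the 15 tested probe sets (rows) on each array (columns, parted by stent type); red is above and blue below the mean. BMS 1 to 3 and SES 4 are red for most rows, SES 2 and ZES 1 are blue for most, and the rows of GBP1 Ssc.29054.1.A1_at and Ssc.29054.3.S1_at run the other way.

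The 2 segments of one pig often differed as well. The LAD minus RCA median over the 15 tested probe sets was 0.34 in the pig of BMS 1 and 2, but -1.31 in the pig of BMS 3 and 4, where 3 of 15 were higher in the LAD. It was 0.93 in the pig of SES 3 and 4, 0.87 in that of ZES 1 and 2 and -0.49 in that of ZES 3 and 4. In the pig of SES 1 and 2 the LCX was 0.56 above the RCA. The direction between arteries was thus not the same in all pigs.

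Members resembled each other to different degrees. As a description over 12 arrays from 6 pigs, each probe set was set against the mean deviation of the other genes' tested probe sets, GBP1 left out. The Pearson correlation was 0.93 for MX1, 0.93 for ISG15, 0.90 for XAF1 and 0.84 for IRF7, 0.71 for RSAD2 and 0.51 for MX2. For IFIT1 it ran from 0.79 to 0.93 and for IFIT2 from 0.62 to 0.87. For the 3 probe sets of GBP1 it was -0.76 (Ssc.29054.1.A1_at), 0.22 (Ssc.29054.2.S1_at) and -0.41 (Ssc.29054.3.S1_at). With deviations taken from the mean of each stent group, so that differences between stents are removed, it was 0.93 for MX1, 0.95 for ISG15 and 0.90 for IRF7. It was 0.84 for XAF1, 0.71 for RSAD2 and 0.43 for MX2, and ran from 0.71 to 0.88 for IFIT1 and from 0.62 to 0.82 for IFIT2. For the GBP1 probe sets, in the same order, it was then -0.59, 0.36 and 0.16, so that only the first remained negative. All points share arrays and their scaling.

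Outside the set, the genes whose values were most like the mean of all 15 tested probe sets over the 12 arrays, of 5784 genes, were IFIT3 (Pearson r = 0.96), LY96 (0.92), ISG12(A) (0.91), NANOS1 (0.91), ASB3 (0.91), PML (0.90), MGP (0.90) and PLN (0.89). IFIT3, ISG12(A) and PML are themselves known interferon-induced genes, LY96 is the co-receptor of TLR4, and MGP and PLN are expressed by smooth muscle. IFIT3 gave 10.55 ± 0.58 with BMS, 9.53 ± 0.65 with SES and 9.70 ± 0.67 with ZES (mean ± SD, n = 4; difference for SES -1.02, limma adjusted p = 0.262). For ISG12(A) the means were 13.30 (BMS), 11.82 (SES) and 11.63 (ZES) (adjusted p = 0.349 and 0.502 against BMS). Within stent groups, the 8 genes most like the mean of the tested probe sets were ASB3 (0.96), GNRHR2 (0.95), IFIT3 (0.94), SIK3 (0.93), CAP2 (0.92), EVL (0.91), MYL6 (0.91) and LY96 (0.90). ASB3 and GNRHR2 lay near background, with means of 5.78 and 5.57 (BMS), 5.49 and 5.64 (SES) and 5.01 and 5.02 (ZES), which limits what their correlations show.

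Upstream of the set, the interferon genes were close to background. Of 10 listed ligands 2 were tested and 0 passed in any comparison. IFNG, interferon gamma, had means of 4.43 ± 1.43 (BMS), 5.90 ± 0.53 (SES) and 5.65 ± 0.76 (ZES) (mean ± SD, n = 4; limma adjusted p = 0.428 and 0.685 against BMS) and was above background on 1 BMS, 4 SES and 3 ZES arrays. IFNA1 was above background on 5 arrays, 1 of them BMS, 2 SES and 2 ZES. It had means of 5.49 ± 0.61 (BMS), 4.28 ± 1.55 (SES) and 3.98 ± 2.65 (ZES). Each lay below the mean background of its group, which was 5.51, 4.72 and 4.72 in that order. Of the receptor chains 3 were tested and 0 passed. IFNGR1 averaged 11.10, 11.38 and 10.71, IFNAR2 averaged 8.53, 8.86 and 8.96, and IFNAR1 lay near background at 5.38, 5.45 and 4.75, for BMS, SES and ZES in that order.

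The carriers of the signal came next. Of 5 tested JAK-STAT genes 0 passed, with 3 below 0 for SES and 2 for ZES. The kinases JAK1 and JAK2 had differences of 0.67 and 0.87 for SES minus BMS (limma adjusted p = 0.230 and 0.390), and STAT2 one of -0.59 (adjusted p = 0.475). Of 4 other interferon regulatory factors 0 passed, all 4 above 0 with SES, led by IRF1, which interferon gamma induces, at 1.22 (adjusted p = 0.263).

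Sensors of the pathway and genes listed as its inhibitors were tested as well. Of 8 tested nucleic acid sensors and adaptors 0 passed in any comparison, among them the RNA sensor DDX58 (RIG-I) with -0.0031 for SES and -1.31 for ZES (adjusted p = 0.999 and 0.600), the nucleic acid sensor ZBP1 with -0.51 and -1.34 (adjusted p = 0.754 and 0.555) and the kinase TBK1 with 0.57 and -0.13 (adjusted p = 0.428 and 0.938). Of 6 tested genes listed as inhibitors 0 passed in limma. Among them NFKBIA, which inhibits the transcription factor NF-kB, was at 1.35 for SES (limma adjusted p = 0.0570). SOCS1 was at 1.71 (adjusted p = 0.315) and PTPN2 at 0.91 (adjusted p = 0.350).

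The other genes known to be induced by type I interferon formed a list of 50, and 17 of them had a probe set named by the listed symbol. ISG12(A), described above, is not listed under that symbol and is not counted here. Of 15 tested, 0 passed, 11 were below 0 for SES and 10 for ZES, with medians of -0.64 and -0.39, against -0.0064 and 0.012 over the 5793 named genes tested. OAS1, which activates an RNase, had differences of -1.32 for SES and -1.10 for ZES (limma adjusted p = 0.169 and 0.488), while SAMHD1, which degrades nucleotides, had 1.0 and 0.36 (adjusted p = 0.169 and 0.788). Of 15 genes induced mainly by interferon gamma, 0 passed, 10 were above 0 for SES and 11 for ZES, with medians of 0.091 and 0.27. TAP1, the peptide transporter, had 0.31 and 0.98 (adjusted p = 0.738 and 0.445), WARS had 0.091 and 0.94 (adjusted p = 0.941 and 0.488), and B2M, the light chain of MHC class I, had -0.83 and -0.73 (adjusted p = 0.190 and 0.488). Whether the 2 lists differ from each other was not tested.

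Other measures were also followed across arrays, and their correlation with the set was not computed. The mean of 11 smooth muscle markers was 11.93 to 12.78 on BMS arrays, 9.42, 9.61, 9.53 and 12.12 on SES 1 to 4, and 10.30, 13.10, 12.47 and 12.55 on ZES 1 to 4. SES 4 and ZES 1, the SES array with the highest and the ZES array with the lowest mean deviation of the 12 probe sets, therefore stood apart in smooth muscle markers too, whereas BMS 3 and BMS 4 both had 11.93. The mean of 7 tested heart muscle markers was 7.21, 6.26, 4.04 and 8.29 on BMS 1 to 4, 5.34, 4.13, 5.08 and 9.02 on SES 1 to 4, and 5.41, 7.01, 6.73 and 9.06 on ZES 1 to 4. BMS 4, SES 4 and ZES 4 were thus the highest of their groups in heart muscle markers. All 11 smooth muscle markers were below 0 for SES minus BMS, with 0 past the threshold in limma and 9 at an unadjusted p under 0.05. Of the 5793 named genes tested, 2923 were below 0 and 437 were lower at an unadjusted p under 0.05. For the spike-in level, all SES arrays lay below all BMS arrays. Among BMS arrays, BMS 2 had the lowest spike-in level (15.74) and the highest mean deviation of the 12 probe sets. The GAPDH control, 3' minus 5', was 3.64 to 4.63 with BMS, 2.33 to 3.02 with SES and 3.44 to 3.91 with ZES. The part of these measures in the differences was not tested. As a covariate, the spike-in level moved the median difference over the 20 probe sets from -1.03 to -0.20 for SES minus BMS, and the spike-in level and the stent type cannot be told apart where the groups do not overlap.

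**Figure D4:**
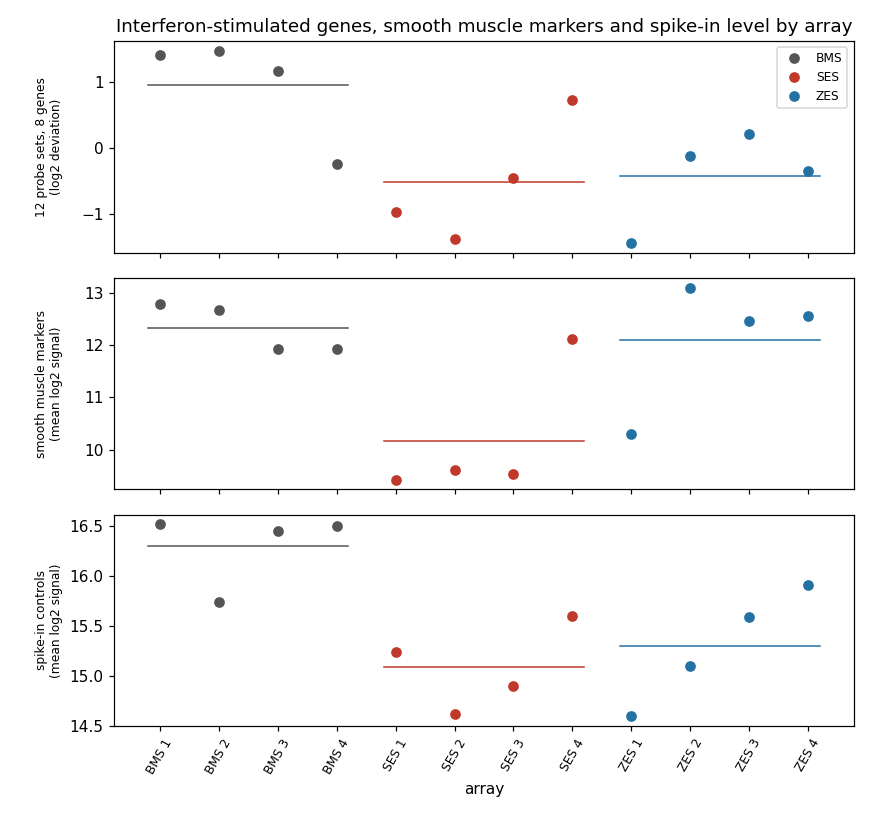
Plots of 3 measures on each array, with the group mean as a line: the mean deviation (log2) of the 12 tested probe sets of IRF7, XAF1, IFIT1, IFIT2, MX1, MX2, ISG15 and RSAD2, the mean log2 signal of 11 smooth muscle markers, and the mean log2 signal of 27 spike-in control probe sets. SES 4 is high and ZES 1 low in the first and second panels, and every SES array is below every BMS array in the third.

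Leukocyte and endothelial markers were looked at in the same way. The mean of 7 tested T and NK cell markers was 4.61 to 5.69 with BMS, 6.33 to 7.81 with SES and 5.11 to 7.12 with ZES. SES 4 was the lowest SES array, as it was for GBP1 Ssc.29054.1.A1_at and Ssc.29054.3.S1_at. Among ZES arrays the orders differed. ZES 4 was the lowest in these markers, whereas the 2 GBP1 probe sets were lowest on ZES 2 (9.91) and ZES 1 (7.12), in that order. Of the 7 markers, 6 were above 0 for SES minus BMS and CD2 was below 0. Among listed markers not tested, CD3D, CD4, CD8B and PRF1 had lower means with SES than with BMS, and CD247 a higher one. In limma, 2 of the 7 passed as higher with SES, where 39 of the 5793 named genes tested did. None of the 16799 probe sets tested passed for SES against BMS with the spike-in covariate or without SES 3. These 2 calls are thus lost there. One was SH2D1A, an adaptor of T and NK cells (limma adjusted p = 0.0290). The other was CD3E, a defining T cell gene, which was below background on all 4 BMS arrays (mean 2.73) and had means of 7.63 with SES and 6.71 with ZES (limma adjusted p = 0.0172 for SES against BMS). The 9 monocyte and macrophage markers had means of 9.60 to 11.03 with BMS, 9.34 to 10.65 with SES and 9.57 to 9.94 with ZES, which overlap. The 5 neutrophil markers had means of 6.72 to 9.22 with BMS, 8.80 to 12.07 with SES and 7.32 to 11.71 with ZES, and 4 of 5 were above 0 in each comparison with BMS, with median differences of 2.87 and 2.64. The 9 endothelial markers had means of 5.83 to 6.50 with BMS, 6.55 to 7.24 with SES and 7.01 to 8.08 with ZES. These lie above BMS without overlap, though narrowly for SES. Of the 9, 7 were above 0 with SES and 8 with ZES, where 2870 and 2937 of 5793 named genes were. VWF, CDH5, TIE1 and CLDN5 were above background on only 1 or 2 BMS arrays. PECAM1, TEK and ENG, above background on all 12 arrays, had differences of 0.17, 0.39 and 0.38 for SES. For ZES these were 0.46, 0.35 and 0.44. In limma, 0 neutrophil and 0 endothelial markers passed. For SES, 3 neutrophil and 2 endothelial markers were higher at an unadjusted p under 0.05, where 474 of 5793 named genes were. The endothelial marker ESAM was lower at that level, with a difference of -1.75, where 437 of the named genes were. For ZES, 4 neutrophil and 3 endothelial markers were higher, where 280 of the named genes were. Plasmacytoid dendritic cells, the main source of type I interferon in blood, could not be followed, since 2 of 7 markers were on the array and only SPIB, which B cells also express, was tested. SPIB passed as higher with SES than with BMS (limma adjusted p = 0.0471), with signals above background on 1 BMS array and on all 4 SES arrays, and this call too is lost with the spike-in covariate or without SES 3. The part of these cells in the differences of GBP1 and of the other genes was not tested.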

How the data were processed

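Signal from each array was deposited on a log2 scale by the authors. The submitters' processing notes name the software Affymetrix Expression Console 5.0 and the algorithm MAS5. The log2 scale was read from the values, since the linear trimmed mean of each array lay between 500.15 and 500.17; the treatment of low signals is not given in the sources used here. Control probe sets (124) and the 30% of the others with the lowest mean were left out, and 16799 were tested. Values were used without a pseudocount and without another normalization. A limma 3.58.1 model (R 4.3.3, statmod 1.5.0) held all 12 arrays, with the stent type as a fixed term, the pig as a random block (consensus correlation -0.0322), eBayes with a variance trend, two-sided, and Benjamini-Hochberg adjustment over all probe sets at 0.05. The procedure was tested on simulated data with independent arrays and large planted shifts. That test does not show how it handles 2 segments per pig or differences as small as most seen here. The number of arrays limits the precision.

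Probe sets were named from the platform annotation, only where it gives 1 symbol; 9 of 9 genes matched RefSeq by gene ID. For genes outside the set, the probe set with the highest mean stands for the gene. All member probe sets are named; of each pathway list, genes past the threshold and otherwise up to 3 with the smallest p of the F test are named, with the 8 genes most correlated with the set. CD3E, SH2D1A, the other cell markers named singly and the controls were named after their values were seen. The genes and lists were chosen with earlier results of these data known. Names of probe sets ending in _s_at mark probes that may detect several transcripts. Alternatives covered the block, normalization, pseudocount, filter, variance trend, covariates, arrays and pigs.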

Additional observations from a re-analysis of the deposited data

Results flagged for a closer look

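In 60 groups of 4 arrays, 3 for each of the 20 probe sets, a single array stood far from the other 3 by Dixon's criterion in 6, where chance gives about 1 in 20. Low arrays were BMS 4 for IRF7, at 9.16 where the next BMS array had 10.56, and BMS 4 for GBP1 Ssc.29054.3.S1_at, at 4.29 against 6.45. ZES 1 was low for IFIT1 Ssc.30752.1.S1_at, at 6.28 against 8.75, and for ISG15, at 8.42 against 10.91. High arrays were BMS 2 for IFIT1 Ssc.30752.2.A1_at, at 14.68 against 14.05, and BMS 1 for MX2 Ssc.220.1.A1_at, at 7.20 against 6.23.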

How the results depend on the processing

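Leaving out each pig and keeping the RSAD2 controls in the test were alternatives chosen after seeing the data. In limma, the count of probe sets past the threshold for SES against BMS became 1, XAF1, with a pseudocount of 64 and with no filter on low values. It ran from 0 to 4 without single arrays (2 without BMS 4, IRF7 and XAF1; 4 without SES 4, these and 2 of GBP1; 1 without ZES 4, XAF1) and from 0 to 2 without single pigs. For the F test it ran from 0 to 2, where calls over all probe sets ran from 0 to 309. Calls for SES against BMS over all 16799 probe sets rose in the same settings, from 114 in the main test. They numbered 200 with the pseudocount, 173 without BMS 4, 413 without SES 4 and 184 without ZES 4. With no filter they numbered 183 of 23999, and without single pigs they ran from 1 to 396. The medians over the 20 probe sets ran, without single arrays, from -1.43 to -0.80 for SES minus BMS, from -1.41 to -0.55 for ZES minus BMS and from -0.25 to 0.46 for ZES minus SES. Without single pigs they ran from -1.70 to -0.40, from -1.83 (without the pig of BMS 3 and 4) to -0.20 and from -0.31 to 0.59. With the spike-in covariate, the median for SES was -0.20.

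Differences that turned in sign had not passed the test; the cause was not tested. For MX1, ZES minus SES became -0.022 with quantile normalization, -0.023 with median centring and -0.15 with the spike-in covariate. MX2, ZES minus BMS, became 0.019 with median centring, which moved the median of all probe sets for SES minus BMS from -0.020 to 0.18. With the spike-in covariate, SES minus BMS became 0.17 and 0.32 for IFIT1 Ssc.30752.2.A1_at and Ssc.30752.3.S1_at and 0.058 for MX1, and ZES minus BMS became 0.71 for GBP1 Ssc.29054.2.S1_at, 0.39 for MX2 and 0.20 for ISG15. Leaving out arrays or pigs gave these ranges. For SES minus BMS they were -0.90 to 2.15 for GBP1 Ssc.29054.2.S1_at and -2.23 to 0.42 for RSAD2. For ZES minus BMS they were -1.95 to 1.10 for GBP1 Ssc.29054.2.S1_at, -0.35 to 0.12 for MX2 and -2.37 to 0.28 for RSAD2. For ZES minus SES they were -1.19 to 1.16, -1.37 to 0.24 and -1.17 to 0.33 for IFIT1 Ssc.30752.1.S1_at, Ssc.30752.2.A1_at and Ssc.30752.3.S1_at, -1.18 to 0.34 and -0.12 to 1.97 for IFIT2 Ssc.17861.1.A1_at and Ssc.22620.1.S1_at, -1.09 to 0.36 and -0.95 to 0.77 for GBP1 Ssc.29054.1.A1_at and Ssc.29054.3.S1_at, -0.47 to 0.50 for MX1, -0.49 to 1.77 for ISG15 and -0.96 to 0.67 for RSAD2. Of the 15 tested probe sets, 10 (SES minus BMS), 11 (ZES minus BMS) and 5 (ZES minus SES) kept their sign under all 29 alternatives. No paired analysis was possible because the labels number no replicates across stent types and each pig carried 1 type. Probe sets near background, of IFIT2, GBP1 and MX2, limit what their differences can show.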
